A study of Mus musculus with 9 samples.

Results

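The miR-132 and miR-212 cluster comprises the mature miRNAs of 2 neighbouring hairpins, miR-212 and miR-132. Its members were all rows of the deposited miRNA table whose name starts with mmu-miR-132 or mmu-miR-212, which gave 4 of 1140 rows, both arms of each hairpin (mmu-miR-132-5p, mmu-miR-132-3p, mmu-miR-212-5p and mmu-miR-212-3p). Livers of male C57BL/6 mice were profiled by small RNA sequencing. The control group (n = 3) received intraperitoneal normal saline for 8 weeks, and the TAA group (n = 3) was injected over the same 8 weeks with the hepatotoxin thioacetamide (TAA), which induces fibrosis. The recovery group (n = 3) received the same 8 weeks of TAA and then had 8 further weeks without it, so recovery cannot be told apart from elapsed time and age. Mice were 8 weeks old at the start, and whole liver tissue was used, which holds hepatocytes together with every other liver cell type.

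Both hairpins are cut from a common primary transcript. Each hairpin yields a 5p and a 3p mature strand, and the strand that is loaded into an Argonaute protein guides it to mRNAs through its seed, bases 2 to 8. The cluster is best known from neurons, where the transcription factor CREB induces it after cAMP, neurotrophin or MAPK signaling. It is also expressed outside the nervous system, in endothelial, immune and mesenchymal cells among others.

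The hairpins lie on the plus strand of chromosome 11 (GRCm38), Mir212 at 75173388 to 75173478 and Mir132 at 75173682 to 75173747, with 203 bases between them. In GENCODE M21 both are in an intron of the non-coding gene 1700016P03Rik (75172560 to 75177633, plus strand), upstream of its exon 2. Mir212 starts 828 bases after the start of this gene. The protein-coding genes Hic1 and Ovca2 flank the hairpins on the minus strand.

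**Figure D1:**
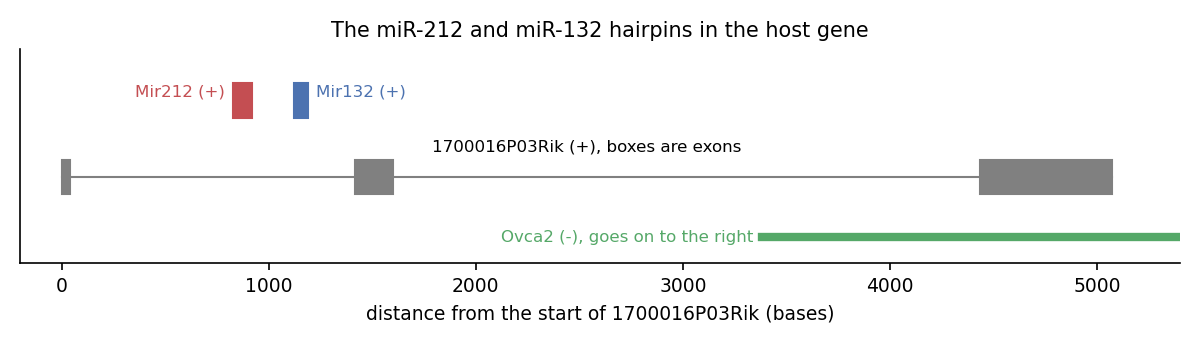
Map of the cluster, with distance in bases from the start of 1700016P03Rik on the x axis. Grey boxes are its exons 1 to 3, coloured boxes are the Mir212 and Mir132 hairpins, and the green line is the part of Ovca2 in view. Both hairpins sit between exons 1 and 2.

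The hairpins are shown to place the 4 members, with the mature strands in capitals (RefSeq sequences, build GRCm38.p6, RNA letters, 5′ to 3′).
Mir212: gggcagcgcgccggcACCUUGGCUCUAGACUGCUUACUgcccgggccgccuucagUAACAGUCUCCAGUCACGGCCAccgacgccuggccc
Mir132: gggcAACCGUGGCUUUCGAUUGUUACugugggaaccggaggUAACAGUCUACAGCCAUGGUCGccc
In each hairpin the first capital stretch is the 5p strand and the second is the 3p strand.

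The mature strands are shown with the seed in capitals, because the seed decides which members can share targets. All 4 names matched the RefSeq table.
mmu-miR-132-3p: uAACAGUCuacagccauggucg
mmu-miR-212-3p: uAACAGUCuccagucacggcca
mmu-miR-132-5p: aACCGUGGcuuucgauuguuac
mmu-miR-212-5p: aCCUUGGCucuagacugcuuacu
The 3p strands formed 1 seed group. Among the 1679 mature mouse miRNA names of the table, mmu-miR-132-3p and mmu-miR-212-3p were the only names with the seed AACAGUC. They were identical at 17 of 22 positions, with the differences A10C, C14U, U17C, U20C and G22A (miR-132-3p base, position from 1 at the 5′ end, miR-212-3p base). The 5p strands each had a seed that no other name in the table shared, ACCGUGG for mmu-miR-132-5p and CCUUGGC for mmu-miR-212-5p, and were identical to each other at 9 of 22 positions.

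Total counts ranged from 9071847 to 12983378 per sample. Levels are given as read counts and as counts per 1000000 counts scaled by TMM factors over the 9 samples (CPM). The scaling weighs on every fold change here. TMM factors ran from 0.745 to 0.795 for control, from 1.49 to 1.65 for TAA and from 0.752 to 0.870 for recovery mice. When library totals were used in place of TMM, which is the scale of the authors' TPM, the log2 fold changes of all tested rows shifted by a median of 1.12 for TAA vs control. The same shift was -0.86 for recovery vs TAA, and for recovery vs control it was 0.19. Where no scale is named, a fold change is a TMM one. The mice of a group were separate animals, and no pair of replicates agreed within sampling noise (chi-square per degree of freedom of at least 26.2).

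The cluster was weakly expressed in the control liver. The 4 members summed to 139, 133 and 133 counts in control replicates 1 to 3, or 16.2 ± 2.42 CPM (SD, n = 3). mmu-miR-132-5p was the most abundant member in every one of the 9 samples and ranked between 206 and 214 among the 1140 rows in the control samples. The order of the group means in control, TAA and recovery liver was the same, mmu-miR-132-5p above mmu-miR-132-3p, mmu-miR-212-5p and mmu-miR-212-3p, and in each single sample these neighbours kept that order.

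TAA vs control addresses how the cluster stood after the fibrosis-inducing course. The members were up-regulated in the TAA group, and the summed level was 44.2 ± 3.08 CPM, 2.72-fold the control mean. The summed counts were 697, 710 and 656 in TAA replicates 1 to 3, each above every control sample. A differentially expressed miRNA (DEM) had a false discovery rate (FDR) below 0.05 in the edgeR quasi-likelihood test and a fold change of at least 2. By this definition mmu-miR-132-3p, mmu-miR-132-5p and mmu-miR-212-5p, the 3 members with counts well above the floor in every control sample, were DEMs higher in the TAA group, against 25% of all 420 tested rows. In these 3 the groups did not overlap, which held in this direction for 39% of the tested rows. mmu-miR-212-3p also met the definition, but it entered the test only through its TAA counts and adds no support to that tally. In whole tissue, more cells of a type and more RNA per cell cannot be told apart.

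mmu-miR-132-3p is the strand through which the cluster is best known. Control replicates 1 to 3 held 29, 29 and 30 counts of it, and TAA replicates 1 to 3 held 185, 282 and 190. This was 3.54 ± 0.651 CPM against 14.2 ± 4.14 CPM. All TAA values lay above all control values, and TAA replicate 2 was the highest. The log2 fold change was 1.95 (SE 0.29, edgeR FDR 0.00122).

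For mmu-miR-132-5p, the opposite strand of this hairpin, the 3 control mice gave 91, 83 and 81 counts and the 3 TAA mice 371, 351 and 358. Its level rose from 10.2 ± 1.19 to 23.1 ± 1.0006 CPM, with no overlap between the groups and little spread within them. The log2 fold change was 1.13 (SE 0.17, edgeR FDR 0.00133). With upper quartile factors in place of TMM it was 0.92, just under a fold change of 2.

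mmu-miR-212-5p was read 17, 19 and 22 times in control mice against 119, 68 and 90 times in TAA mice, or 2.36 ± 0.668 against 5.87 ± 1.26 CPM. The groups did not overlap, although TAA replicate 2, the highest sample for mmu-miR-132-3p, was the lowest TAA sample here. The log2 fold change was 1.26 (SE 0.30, edgeR FDR 0.00894).

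mmu-miR-212-3p, which shares the seed of mmu-miR-132-3p, was close to the detection limit. Control mice gave 2, 2 and 0 counts, all under the floor of 3 counts, and TAA mice gave 22, 9 and 18. From the summed counts of 49 and 4, the ratio of TAA to control was 6.66 on the TMM scale, with an exact 95% interval of 2.44 to 25.4 that covers counting error only. It passed the filter on low counts only through the TAA samples, so that its call (edgeR FDR 0.0165) is not independent of the filter. With no filter the FDR was 0.0124, without control replicate 1 it was 0.0552, and without TAA replicate 1 the row was filtered out.

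**Figure D2:**
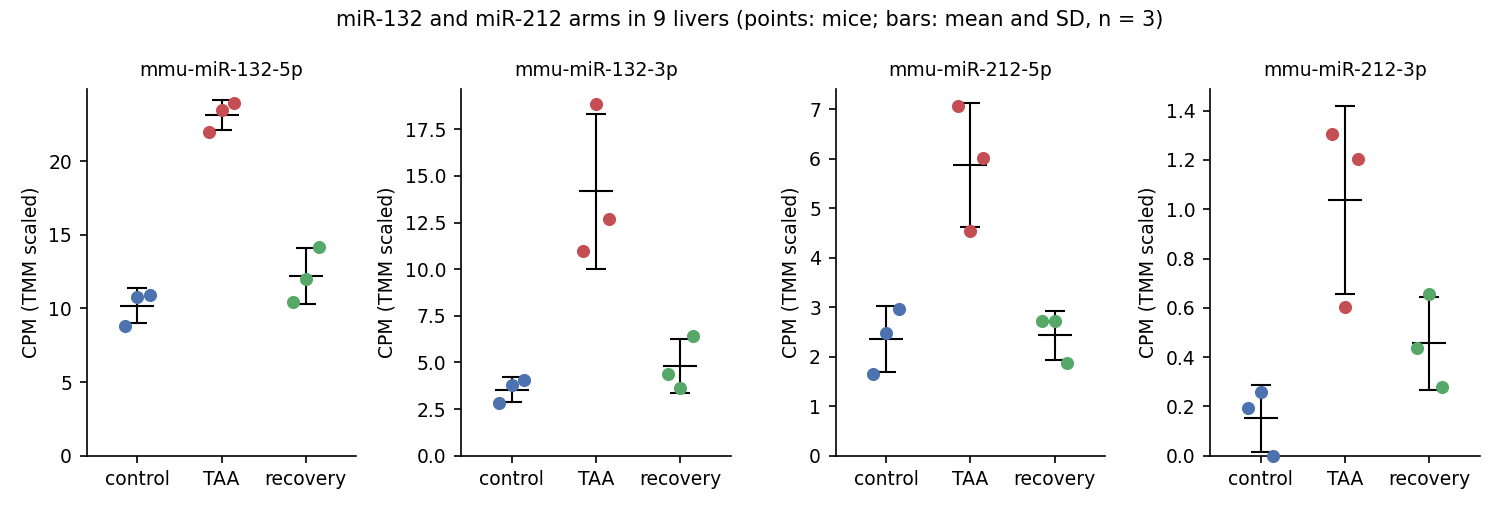
CPM (TMM scaled, y axis from 0) of the 4 members in the control, TAA and recovery groups. Points are mice, the horizontal bar is the mean and the whiskers are 1 SD (n = 3). In each panel the TAA samples lie above all control samples, and in 3 of the 4 panels also above all recovery samples.

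On the scale of library totals the rise was larger, with log2 fold changes of 3.08 for mmu-miR-132-3p, 2.25 for mmu-miR-132-5p, 2.38 for mmu-miR-212-5p and 3.65 for mmu-miR-212-3p. On that scale 57.4% of all tested rows were DEMs higher in the TAA group, and the median of all tested rows was 1.23 against 0.11 under TMM. mmu-miR-132-3p, mmu-miR-132-5p and mmu-miR-212-5p exceeded that median on both scales. The same held for mmu-miR-212-3p, but it entered the test only through its TAA counts and adds no support.

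Recovery vs TAA addresses what changed once TAA was withdrawn. The summed level was 19.9 ± 2.53 CPM, 0.450 times the TAA mean, with 165, 203 and 244 counts in recovery replicates 1 to 3. mmu-miR-212-3p entered this test, too, only through its TAA counts and is left out of the tallies. Of the 3 other members 2 were DEMs lower in the recovery group, against 14.5% of all 440 tested rows. In all 3 every recovery sample lay below every TAA sample, as in 27% of the tested rows. This comparison shares the TAA samples with TAA vs control, so a high TAA value enters both.

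mmu-miR-132-3p fell to 40, 39 and 69 counts in recovery replicates 1 to 3, or 4.81 ± 1.45 CPM, with every sample below every TAA sample (log2 fold change -1.64, SE 0.32, edgeR FDR 0.00646). mmu-miR-212-5p fell to 25, 29 and 20 counts, or 2.43 ± 0.492 CPM, again without overlap (log2 fold change -1.34, SE 0.28, edgeR FDR 0.00816). These 2 were the DEMs.

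mmu-miR-132-5p had 96, 128 and 152 counts in the recovery samples, or 12.2 ± 1.87 CPM, all below the TAA samples. Its log2 fold change of -0.997 (SE 0.20, edgeR FDR 0.00674) passed the FDR and missed the fold change of 2 by a small margin, and it was called in several alternatives, among them library totals (-1.86). mmu-miR-212-3p had 4, 7 and 3 counts, and its highest recovery sample, at 0.655 CPM, overlapped the lowest TAA sample, at 0.602 CPM. Its log2 fold change was -1.23 (SE 0.48, edgeR FDR 0.0744), and under library totals it was a DEM (-2.08, FDR 0.00619). It passed the filter only through its TAA counts and adds no support to a tally. On that scale mmu-miR-132-3p, mmu-miR-132-5p and mmu-miR-212-5p were all DEMs lower in the recovery group, against 46.1% of all tested rows.

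**Figure D3:**
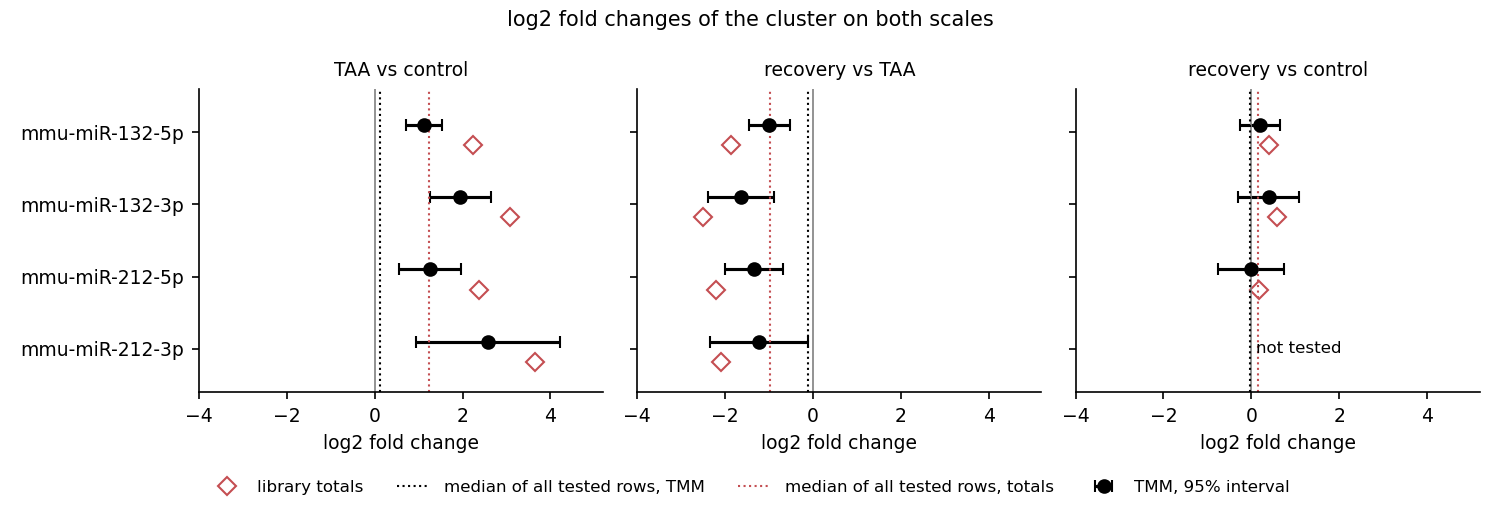
log2 fold change (x axis) of the 4 members in the 3 comparisons. Black points are edgeR estimates under TMM with 95% intervals, open red diamonds are estimates under library totals, and dotted lines are the medians of all tested rows on each scale. Each member lies beyond the median of its scale in both comparisons with the TAA group, while the 3 tested intervals of recovery vs control contain 0. mmu-miR-212-3p entered both comparisons with the TAA group only through its TAA counts and adds no support.

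Recovery vs control addresses what was left after 8 weeks without TAA. Of the 3 members tested by edgeR 0 were DEMs and 0 had an unadjusted p-value below 0.05, and DESeq2, which tested all 4, also called 0. Of all 391 tested rows 11.3% were DEMs in either direction. The log2 fold change was 0.39 for mmu-miR-132-3p (95% interval -0.30 to 1.08, edgeR FDR 0.562), 0.20 for mmu-miR-132-5p (-0.26 to 0.66, FDR 0.673) and -0.005 for mmu-miR-212-5p (-0.76 to 0.75, FDR 0.992). The upper limit of 1.08 for mmu-miR-132-3p leaves room for a residual change of the fold threshold, and the intervals do not show that the groups were equal. mmu-miR-212-3p did not pass the filter in edgeR, with 4, 7 and 3 counts in the recovery samples against 2, 2 and 0 in the control samples, a pair of ranges that did not overlap. It was not called in the fits that kept it (DESeq2, no filter and all 9 samples). The summed level of the cluster was 17.96, 19.01 and 22.8 CPM in recovery replicates 1 to 3 and 13.5, 17.3 and 17.9 CPM in control replicates 1 to 3. The recovery samples thus lay above the control samples in the sum (1.23-fold in the means), by a margin smaller than the spread within either group, and 18.2% of the tested rows did not overlap in this direction.

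Ratios within a sample do not depend on the scaling, so the members were also compared with each other. The 3p strand held 24.2%, 25.9% and 27.0% of the miR-132 counts in control replicates 1 to 3, and 33.3%, 44.5% and 34.7% in TAA replicates 1 to 3. In recovery replicates 1 to 3 it held 29.4%, 23.4% and 31.2%. The TAA shares lay above all control and all recovery shares, while control and recovery overlapped. TAA replicate 2 stood highest, with a 95% Wilson interval of 40.7% to 48.4% that did not meet those of the other TAA samples (29.5% to 37.3% and 30.8% to 38.8%). For single samples the intervals were wider in the control group, where 111 to 120 counts stood behind each share, and those of TAA replicates 1 and 3 met the control intervals.

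The log2 ratio of mmu-miR-132-3p to mmu-miR-132-5p averaged -1.52 ± 0.11 for control, -0.74 ± 0.37 for TAA and -1.36 ± 0.30 for recovery mice (SD, n = 3). The difference was 0.77 in TAA vs control (exact two-sided permutation p = 0.1) and -0.62 in recovery vs TAA (exact p = 0.1). With 3 samples against 3 the smallest possible p is 0.1. Adjusted over the 18 tests of 6 pairs in 3 comparisons, both p-values were 0.6. Among the 123 hairpins with at least 50 counts summed over the samples on each strand, 9.76% had a 3p to 5p ratio that was higher in all TAA samples than in all control samples, and the median difference was -0.03. In recovery vs TAA 12.2% had a ratio lower in all recovery samples.

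For miR-212 the counts were too few to compare strands. The 3p strand held 2 of 19, 2 of 21 and 0 of 22 counts in the control samples, where the floor of 3 counts corresponds to 13.6% to 15.8%. TAA mice had shares of 15.6%, 11.7% and 16.7%, and recovery mice 13.8%, 19.4% and 13.04%. The 95% Wilson intervals of the control samples reached up to 14.9% to 31.4% and met those of every other sample. The log2 ratio of mmu-miR-212-3p to mmu-miR-212-5p differed by 1.24 between TAA and control (exact permutation p = 0.2) and by 1.41 between recovery and control (exact p = 0.1, adjusted p = 0.6). The last was without overlap, as for 5.69% of the 123 hairpins, with every control count under the floor.

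**Figure D4:**
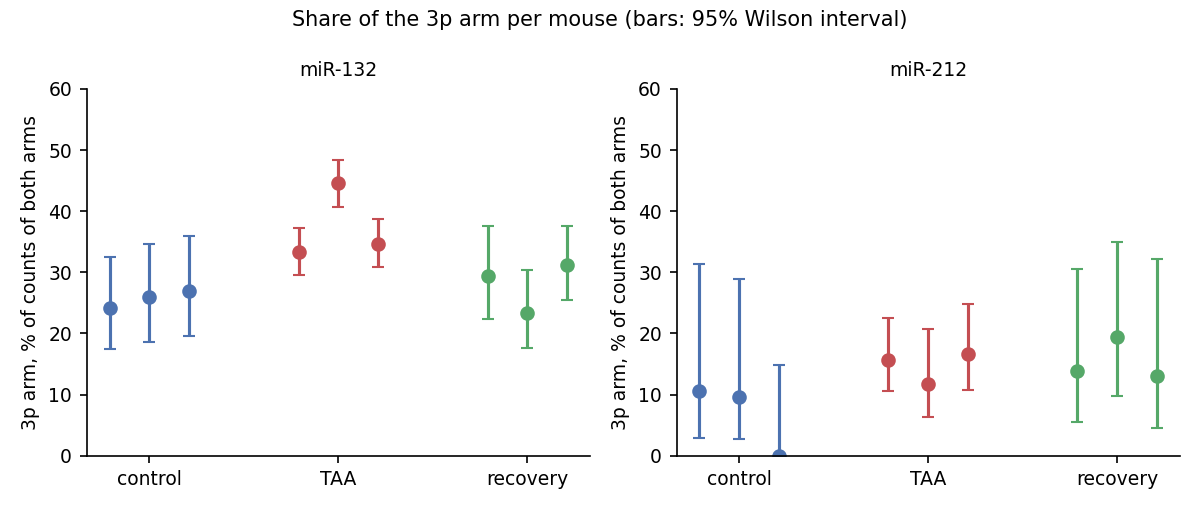
Share of the 3p strand in the counts of both strands (%, y axis from 0) of miR-132 and miR-212 for each mouse, with 95% Wilson intervals. For miR-132 the TAA samples lie at 33.3% to 44.5%, above the control samples at 24.2% to 27.0%. For miR-212 the intervals are wide and meet.

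Between the hairpins all 4 ratios overlapped between the groups in all 3 comparisons. The log2 ratio of mmu-miR-132-5p to mmu-miR-212-5p, the more abundant strand of each hairpin, averaged 2.11 ± 0.27 for control, 1.99 ± 0.36 for TAA and 2.31 ± 0.51 for recovery mice (SD, n = 3; exact permutation p = 0.7 for TAA vs control). The log2 ratio of mmu-miR-132-3p to mmu-miR-212-5p was 0.60 ± 0.16, 1.25 ± 0.72 and 0.95 ± 0.71 in the same order, with overlap (exact permutation p = 0.2 for TAA vs control). Of the 18 tests 3 reached the smallest possible p, the 2 for the strands of miR-132 and the 1 for miR-212 in recovery vs control.

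Other miRNAs that are known to be induced by extracellular or stress signals were compared as a list of 12. In TAA vs control 11 were tested, 5 of these were DEMs higher and 1 was a DEM lower in the TAA group (25% and 16.7% of all tested rows). Their median log2 fold change was 0.88, against 0.11 for all tested rows. The raised ones were mmu-miR-34a-5p and mmu-miR-34c-5p, targets of p53 (2.66 and 2.67), mmu-miR-146b-5p and mmu-miR-155-5p, linked to NF-kB signaling (1.80 and 1.65), and mmu-miR-147-3p, induced by Toll-like receptor ligands. The last had 0 counts in all control samples and 1.39 ± 0.490 CPM in the TAA group, at least 3.84-fold higher than the floor of 3 counts per library. It entered the tests of TAA vs control and recovery vs TAA only through its TAA counts. It is counted in the tallies of this list but adds no support to them. The lowered one was mmu-miR-210-3p, induced by hypoxia (-1.05), which was not called and stood at 0.055 under library totals. Not called under TMM were mmu-miR-146a-5p (-0.17), mmu-miR-21a-5p (-0.36), mmu-miR-221-3p (0.43), mmu-miR-222-3p (0.73) and mmu-miR-31-5p (0.88). Under library totals 8 of the 11 were DEMs higher, beside 57.4% of all tested rows, and 0 were lower. After withdrawal 4 of 11 were DEMs lower than in the TAA group and 0 were higher, beside 14.5% and 10.2% of all tested rows. Their median was -0.74, against -0.12 for all tested rows. Under library totals 8 of 11 were lower, beside 46.1% (median -1.60, against -0.98 for all tested rows). In recovery vs control 0 of 10 were DEMs in the edgeR test (median 0.23, against -0.03). Of these 1 had an FDR below 0.05, mmu-miR-31-5p (0.72, FDR 0.027). mmu-miR-155-5p had mean levels of 3.30, 10.8 and 5.82 CPM in control, TAA and recovery mice.

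The rows whose pattern over the 9 samples was most like that of mmu-miR-132-3p were found by the root mean square difference between centred log2(CPM + 1) profiles, among 225 rows outside the cluster with a mean of at least 10 CPM. They were mmu-miR-5099 (0.166), mmu-miR-214-3p (0.297), mmu-miR-12182-3p (0.303), mmu-miR-223-3p (0.329) and mmu-miR-199a-3p (0.388). The Dnm3os transcript of mesenchymal cells gives rise to miR-214 and to a copy of miR-199a, and miR-223 is a myeloid miRNA. Within the cluster the difference from mmu-miR-132-3p was 0.332 for mmu-miR-132-5p, less than for mmu-miR-199a-3p, 0.493 for mmu-miR-212-5p and 0.605 for mmu-miR-212-3p. The added 1 CPM shrinks changes at low levels, most for mmu-miR-212-3p (0.151, 1.04 and 0.457 CPM in control, TAA and recovery mice). The differences of the miR-212 rows therefore also depend on their level. Under library totals 4 of the 5 rows outside the cluster were again among the 5 most alike.

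**Figure D5:**
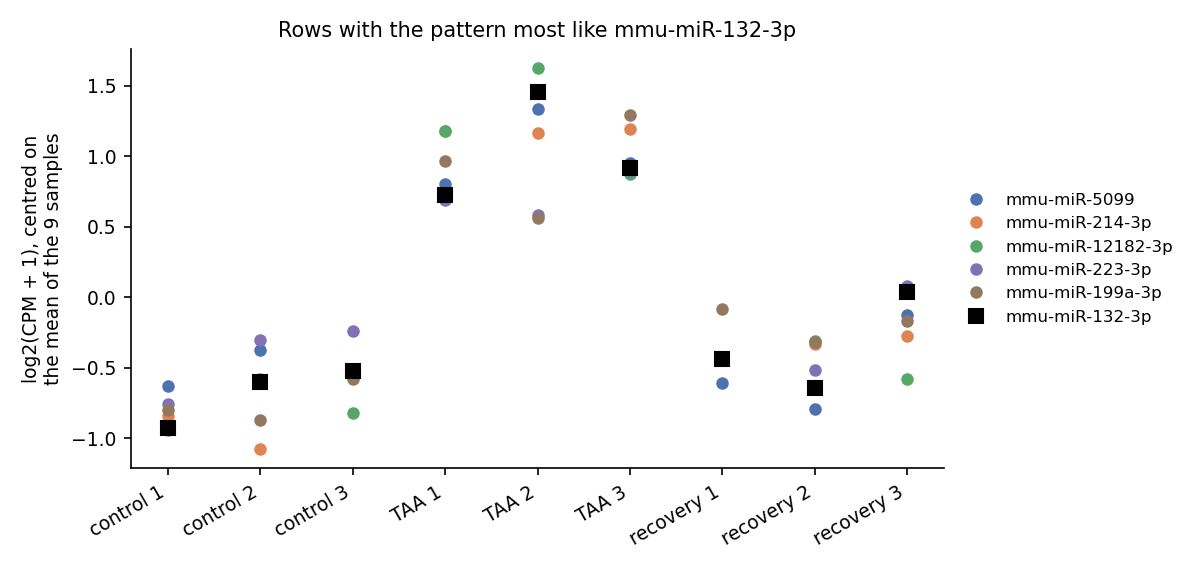
log2(CPM + 1) centred on the mean of the 9 samples (y axis) for mmu-miR-132-3p (black squares) and the 5 rows most like it (coloured points), by sample (x axis). All 6 are high in the TAA samples, which follows from the choice of the 5 rows by their likeness to mmu-miR-132-3p. In TAA replicate 2 mmu-miR-132-3p, mmu-miR-5099 and mmu-miR-12182-3p are at their highest.

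Marker miRNAs of several cell types also differed between the groups, and not all in the direction of the cluster. In TAA vs control 4 of 4 hepatocyte markers were DEMs lower in the TAA group, and 4 of 4 biliary or epithelial markers, 3 of 5 stellate cell and fibroblast markers and 1 of 5 leukocyte markers were DEMs higher. Of all tested rows 16.7% were DEMs lower and 25% higher, so that the leukocyte count is no larger than that share. Under library totals these counts were 0 of 4, 4 of 4, 4 of 5 and 5 of 5, where 57.4% of all tested rows were higher, so the call of the hepatocyte markers depends on the scale, although their direction did not. The summed hepatocyte markers made up 514093 to 527266 CPM for control, 148517 to 171306 for TAA and 435104 to 518027 for recovery mice. For the epithelial markers it was 571.8 to 773 CPM, 3293 to 5318 and 1259.8 to 1437, and for the leukocyte markers 195 to 227, 284 to 329 and 159 to 239. The sum of the stellate cell and fibroblast markers overlapped between the groups (25835 to 30991, 17868 to 39329 and 22275 to 36463 CPM), since mmu-miR-143-3p held most of it, while mmu-miR-214-3p rose by 2.003 on the log2 scale. Both endothelial markers missed the call, and their direction depends on the scale. Their sum was 8445 to 8829 CPM for control, 5648 to 6865 for TAA and 8502 to 9299.5 for recovery mice under TMM, while in deposited TPM it was higher in TAA mice (8755 to 11204) than in control mice (6576 to 6715). Of the red cell markers 1 of 3, mmu-miR-451a, was lower in the TAA group under TMM but not called under library totals (778 to 1357, 204 to 459 and 335 to 634 CPM). After withdrawal the 4 hepatocyte markers were DEMs higher than in the TAA group, and 4 epithelial, 3 stellate cell and fibroblast and 1 leukocyte marker were DEMs lower, beside 10.2% of all tested rows higher and 14.5% lower. Under library totals 0 hepatocyte markers were called, and 4 epithelial, 3 stellate cell and fibroblast and 5 leukocyte markers were lower, beside 46.1% of all tested rows. The part of these cell types in the rise of the cluster was not tested. Of the neuronal markers, mmu-miR-124-3p had 0 counts in all control and recovery samples and at most 0.134 CPM in a TAA sample. mmu-miR-9-5p was a DEM in TAA vs control (1.03, edgeR FDR 0.0395). TAA replicates 1 to 3 held 12.5, 4.95 and 12.3 CPM of it, against 4.45 to 4.81 CPM in control mice. TAA replicate 2 was thus close to the control level. mmu-miR-128-3p had a log2 fold change of 0.08, which was 1.20 and called under library totals. The sum of all 3 was 90.2 to 100.2 CPM for control, 86.7 to 128 for TAA and 79.6 to 105 for recovery mice.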

How the data were processed

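Small RNA-seq of 9 mouse livers was used (3 per group by the sample titles). The authors prepared libraries with a NEBNext small RNA kit, filtered the reads and mapped them to mm10 and miRBase with Bowtie (version 1.3.0 per the labels). They deposited read counts per mature miRNA, not normalized, and a TPM that equalled the count divided by the column total times 1000000 (largest difference 4.96e-05). Handling of reads that match several miRNAs was not given in the sources used here. The nearest other row to any member differed by at least 7.09% of the joint counts.

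Counts of all rows were tested with edgeR (version 4.0.16, R 4.3.3): filterByExpr (minimum count 10), TMM, glmQLFit and glmQLFTest on the 6 samples of each comparison, Benjamini-Hochberg adjustment over all tested rows. The SE was the log2 fold change divided by the square root of F. The authors used DESeq2, here an alternative (1.42.0), as was limma (3.58.1) on log2(TPM + 1). Ratios used counts plus 0.5 and exact permutation tests. Wilson and exact intervals (95%) and the floor of 3 counts cover counting error only. Scripts were tested on simulated data.

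The members and lists were chosen with earlier results of these data known. Named miRNAs were the 4 members, the signal-induced and marker lists, and the 5 rows most like mmu-miR-132-3p. Hairpin positions came from GENCODE M21, which shares the build mm10 (GRCm38). The promoter table had no entry for Mir132 or Mir212, and no motif search was made. Alternatives were other scalings (DESeq2 size factors, library totals, upper quartile), other filters, a fit of all 9 samples, removal of the miR-122 rows, the replicate number as a block and leaving out each replicate.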

Additional observations from a re-analysis of the deposited data

How the results depend on the processing

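Every fold change of a member kept its direction in TAA vs control and recovery vs TAA under all alternatives, while the near-zero value of mmu-miR-212-5p in recovery vs control changed sign without being called. In TAA vs control mmu-miR-132-5p was not a DEM with upper quartile factors (0.92, the cause was not tested). A filter of a mean of at least 10 CPM removed both miR-212 rows and left mmu-miR-132-3p and mmu-miR-132-5p, both DEMs. Both passed it only through the TAA samples, so these calls add no support. Their means were 2.69 and 7.75 TPM in control mice and 22.7 and 36.8 TPM in TAA mice. Removal of the miR-122 rows took mmu-miR-212-3p below the filter. Without single replicates the log2 fold change of mmu-miR-212-3p was 2.07 to 3.05 in the 5 fits that kept it. It missed the FDR without control replicate 1 and fell below the filter without TAA replicate 1. In recovery vs TAA mmu-miR-132-5p, at -0.997, became a DEM under library totals (-1.86), limma (-1.78), no filter (-1.004), the 10 CPM filter (-1.16) and the block (-1.01), and ranged from -1.07 to -0.83 without single replicates, where it was called without recovery replicate 3 (-1.07). mmu-miR-212-3p was called under library totals (-2.08), but it entered this test only through its TAA counts and is left out of the tally. On that scale mmu-miR-132-3p, mmu-miR-132-5p and mmu-miR-212-5p were all DEMs lower in the recovery group, beside 46.1% of all tested rows. Under TMM 2 of these were, beside 14.5% of all tested rows. The cause was not tested, beyond the shift of all rows that library totals bring. Over all rows, the 10 CPM filter left 85, 60 and 13 DEMs in the 3 comparisons (TAA vs control first, recovery vs control last) against 175, 109 and 44, and library totals gave 207 for recovery vs TAA.

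Replicate numbers are shared between groups, but the mice are different animals, and deviations of same-numbered samples correlated at -0.359 to 0.369 over 226 rows. Of 6 samples 0, 3 and 2 correlated best with their own number in the 3 comparisons. With the replicate block 4, 3 and 0 members and 178, 106 and 44 rows were DEMs, and mmu-miR-132-5p in recovery vs TAA (-1.01) was the only member whose call changed.

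Differences in log2 ratio between members changed sign only without single replicates, and only where the exact permutation p with all samples was at least 0.5. Without single replicates mmu-miR-132-3p to mmu-miR-212-3p ranged from -1.15 to 0.21 in TAA vs control and from -0.98 to 0.089 in recovery vs TAA. mmu-miR-132-3p to mmu-miR-212-5p ranged from -0.71 to 0.10 in recovery vs TAA and from -0.052 to 0.62 in recovery vs control. mmu-miR-132-5p to mmu-miR-212-3p ranged from -0.25 to 0.49 in recovery vs TAA. mmu-miR-132-5p to mmu-miR-212-5p ranged from -0.30 to 0.059 in TAA vs control and from -0.092 to 0.40 in recovery vs control. mmu-miR-212-3p to mmu-miR-212-5p ranged from -0.0098 to 0.29 in recovery vs TAA. The difference of mmu-miR-132-3p to mmu-miR-132-5p kept its sign, at 0.56 to 0.90 in TAA vs control and -0.75 to -0.41 in recovery vs TAA. Depth limits mmu-miR-212-3p most, with 0 to 22 counts per sample.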

Other observations

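Within the TAA group the hairpins did not rank the mice alike. TAA replicate 2 had the highest mmu-miR-132-3p (18.9 CPM) and the lowest mmu-miR-212-5p (4.55 CPM) and mmu-miR-212-3p (0.602 CPM), while mmu-miR-132-5p was nearly level over the TAA samples (22.01, 23.5 and 23.9 CPM). In recovery replicate 3 mmu-miR-132-3p (6.44 CPM) and mmu-miR-132-5p (14.2 CPM) were the highest of the recovery group, and mmu-miR-212-5p (1.87 CPM) and mmu-miR-212-3p (0.280 CPM) were the lowest. These samples were singled out after their values were seen, and no test was made.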
